A study of Homo sapiens with 6 samples.

Results

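The hypoxia response and glycolysis genes described here are 37 of the 31628 genes in the deposited expression table, taken by an exact match to a list of gene symbols that was written with earlier results of these data known. Of these, 17 belong to the oxygen-sensing system: the transcription factors HIF1A and EPAS1, the oxygen sensors EGLN1 and EGLN3, and 13 target genes outside glycolysis. The other 20 carry glucose through glycolysis: 15 glycolytic enzymes, 3 glucose and lactate transporters and 2 enzymes that set the level of fructose 2,6-bisphosphate. All 37 symbols were found, and 27 of them passed the filter for testing, a mean FPKM of at least 1 over all libraries. FPKM is the number of reads per kilobase of gene, scaled to the size of the library.

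Hypoxia-inducible factors (HIFs) are transcription factors whose alpha subunits are made continuously and destroyed when oxygen is present, because the EGLN enzymes hydroxylate them and the VHL ubiquitin ligase then recognises them. When oxygen falls, the alpha subunits pair with ARNT and bind short DNA motifs next to genes for blood vessel growth, pH control, mitophagy and glucose use, among them most glycolytic enzymes. Colon cancer cells often keep glycolysis high even in oxygen, and MYC drives several of the same enzymes.

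RNA selected by poly(A) tail was sequenced from HCT116, a human colon cancer line, in which the histone acetylation reader ENL (gene MLLT1) carries an auxin-inducible degron and which stably expresses AtAFB2, a plant F-box protein that directs degron-tagged proteins to destruction once auxin is added. The 6 libraries form 3 groups of 2: untreated control cells, cells given the auxin IAA at 500 um (the labels' spelling, read as micromolar) for 3 h, and washout cells, which received the same IAA, were washed with PBS and grew for another 48 h in normal medium. All groups share the tagged ENL, AtAFB2 and the antibiotic selection of clones with puromycin and blasticidin, and the labels do not say how many clones the libraries stand for or whether the replicates are separate cultures. What the p-values measure is then the spread between the libraries at hand, which may be technical. IAA-treated cells without the degron were not analysed here, so IAA itself and loss of ENL cannot be told apart, and neither can IAA removal and 48 h of further growth. No label gives an oxygen level.

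The steps in the FPKM values put the library totals between 16440000 and 16770000 reads, with 8220 to 8406 genes at 1 FPKM or more in each. MLLT1 had 459 and 480 control reads, 445 and 402 IAA reads and 463 and 428 washout reads, but the degron acts on the protein and this RNA does not check it. Epithelial markers were present, 8 of 8 at a mean FPKM of at least 1, while 0 of 11 markers found for blood, endothelium and fibroblasts reached that level. In a bulk sample, fewer cells that express a gene and less RNA per cell cannot be told apart. The deposited FPKM divide by the whole gene span, introns included, so long genes have low values. Levels are therefore compared between genes only per exon length, and changes are compared within a gene. In GENCODE 29 the exons of 23 members overlap exons of another gene, and the sources used here do not give the strand that was read, so some of their reads may belong to the neighbour.

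Treatment with IAA for 3 h left most hypoxia and glycolysis genes without a called change. KDM3A, a histone demethylase gene that is a known HIF target, rose 1.47-fold. HK2, a hexokinase that phosphorylates glucose in the first step of glycolysis, fell to 0.654 of its control level. In limma, these were the 2 members changed of 27 tested (7.41%), 1 in each direction, against 13.1% of all 8317 tested genes (6.64% up and 6.49% down). Changed means an adjusted p under 0.05 (Benjamini-Hochberg over all tested genes) with no limit on the fold. The median log2 change of the 27 was -0.03, beside 0.01 for all tested genes, so the share called and the median lay near or under the background. Their 2 groups of libraries did not overlap for 18 of the 27 members, against 61.9% of all tested genes. With FPKM rescaled to TPM the 1044 genes called were 397 up and 647 down, where the unscaled values gave 552 and 540, and the members called were KDM3A up and HK2, ADM and PFKP down.

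A second test, limma's voom on the whole reads recovered from the FPKM, needs a mean of at least 10 reads in place of the FPKM filter and reaches 36 of the 37 members, all but CA9, with 14812 genes tested. It called 11 members (30.6%), 3 up and 8 down, against 24.1% of all genes (13.9% up and 10.2% down). Among the 16 genes of the oxygen-sensing system it called 2 up and 3 down, with a median log2 change of 0.04. The median of all 14812 genes was also 0.04. Among the 20 glycolysis and transport genes it called 1 up and 5 down, with a median of -0.04. The difference between these groups was not tested.

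**Figure D1:**
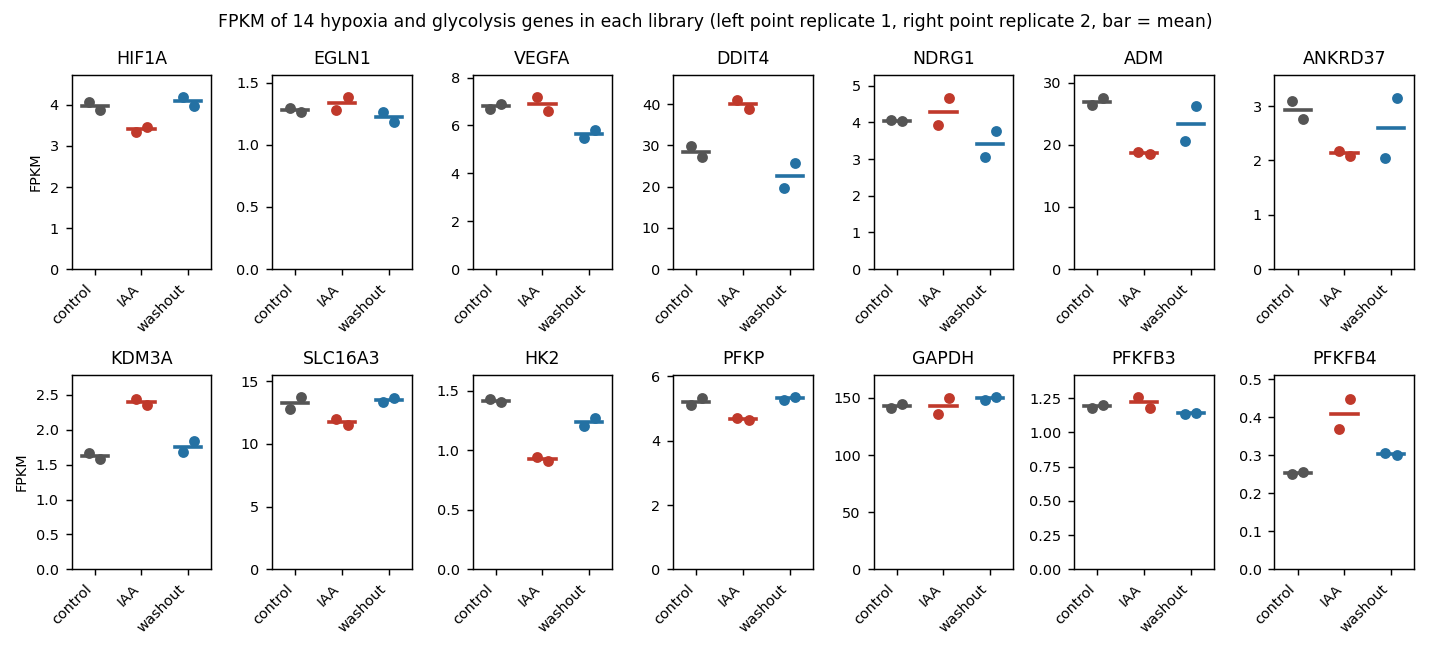
FPKM (vertical axes, each starting at 0) of 14 members in the 2 control, 2 IAA and 2 washout libraries, with replicate 1 at the left of each pair and a bar at the mean. KDM3A, DDIT4 and PFKFB4 have both IAA libraries above both control libraries, HK2, ADM, ANKRD37, HIF1A, SLC16A3 and PFKP have both below, and the washout pair of ADM, ANKRD37 and DDIT4 is far apart.

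Of the transcription factors, HIF1A (ENSG00000100644.12), the alpha subunit present in nearly all cells, had 4.07 and 3.88 FPKM in control cells, 3.33 and 3.47 under IAA and 4.19 and 3.98 once IAA was washed out. Both IAA libraries lay under the other 4. The log2 change with IAA was -0.18 (SE 0.0425, limma adjusted p = 0.0612), which missed the threshold, and voom called it down at -0.22 (adjusted p = 0.000549). An antisense gene overlaps HIF1A in the annotation. EPAS1, the alpha subunit of the second HIF complex, ranged from 0.958 to 1.06 FPKM over all libraries and was called in no comparison by either test.

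The oxygen sensor EGLN1, the main HIF prolyl hydroxylase, had 1.29 and 1.26 FPKM in control cells, 1.28 and 1.39 under IAA and 1.27 and 1.19 once IAA was washed out. The control and IAA libraries overlapped (log2 change 0.04, 95% interval -0.07 to 0.15, limma adjusted p = 0.607). EGLN3, a sensor that HIF itself induces, stood at 66 to 111 reads per library, under the filter, and was not called by voom.

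Among the 13 HIF targets outside glycolysis, 7 passed the filter and limma called 1 up and 0 down with IAA (14.3%, near the 13.1% of all tested genes). KDM3A (ENSG00000115548.12), which removes methyl groups from histone H3 lysine 9, had 1.67 and 1.59 FPKM in control cells, 2.44 and 2.36 under IAA and 1.67 and 1.83 once IAA was washed out. Both IAA libraries stood well above the other 4, which lay close together. The mean went from 1.63 ± 0.0602 to 2.40 ± 0.0597 FPKM (SD, n = 2), a log2 change of 0.37 on the log2(FPKM + 1) scale (SE 0.0445, limma adjusted p = 0.0145) and of 0.56 on recovered reads (voom adjusted p = 4.21e-09). The limma call rests on all 4 libraries: without any 1 of the control or IAA libraries the adjusted p was 0.0766 to 0.0896.

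DDIT4 (ENSG00000168209.4), a stress-induced inhibitor of mTORC1 signalling, had 29.9 and 27.1 FPKM in control cells, 41.1 and 38.8 under IAA and 19.6 and 25.8 once IAA was washed out. The IAA libraries were the highest and the washout libraries the lowest, with no overlap between the groups. The mean went from 28.5 ± 2.01 to 39.9 ± 1.60 FPKM with IAA (SD, n = 2), and the log2 change of 0.47 (SE 0.137) missed the limma threshold (adjusted p = 0.0896) but was called up by voom (0.49, adjusted p = 1.25e-05). Without washout replicate 1 or 2 limma called it too, at an adjusted p of 0.0477 and 0.0476. An antisense gene overlaps the DDIT4 exons, so its reads may be shared.

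ADM (ENSG00000148926.5), which encodes the vessel-dilating peptide adrenomedullin, went the other way. It had 26.4 and 27.5 FPKM in control cells, 18.8 and 18.5 under IAA and 20.6 and 26.2 once IAA was washed out. The IAA pair was tight and under every other library. The log2 change with IAA was -0.51 (SE 0.114, limma adjusted p = 0.0523), just over the threshold, and -0.53 by voom (adjusted p = 5.23e-06). Limma called it without washout replicate 1 or 2 (adjusted p 0.0295 and 0.0292).

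ANKRD37 (ENSG00000186352.4), a small ankyrin-repeat gene and a direct HIF target, had 3.10 and 2.76 FPKM in control cells, 2.18 and 2.08 under IAA and 2.04 and 3.14 once IAA was washed out. These values stand for 237 and 213, 165 and 161, and 157 and 241 reads. The control and IAA libraries did not overlap, whereas the washout pair held both the lowest and the highest of the 6 values. Limma did not call the log2 change of -0.33 (SE 0.153, adjusted p = 0.224), and voom called it down at -0.45 (adjusted p = 0.0462). Its exons overlap those of UFSP2 on the other strand.

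VEGFA (ENSG00000112715.16), the main growth factor for blood vessels, had 6.70 and 6.88 FPKM in control and 7.17 and 6.59 with IAA. These libraries overlapped (log2 change 0.01, 95% interval -0.12 to 0.15, limma adjusted p = 0.875). NDRG1 (ENSG00000104419.10), a stress and differentiation gene strongly induced by hypoxia, had 4.06 and 4.04 FPKM in control and 3.92 and 4.66 with IAA, also overlapping. P4HA1, a collagen prolyl hydroxylase subunit, had 1.53 and 1.50 FPKM in control and 1.37 and 1.50 with IAA (log2 change -0.05, limma adjusted p = 0.736).

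The 6 HIF targets under the filter were CA9, BNIP3, BNIP3L, PDK1, P4HA2 and ANGPTL4. CA9, a surface carbonic anhydrase used as a marker of hypoxic tumour cells, had 4 to 14 reads per library. PDK1, a kinase that inhibits pyruvate dehydrogenase, had 506 and 478 reads in control cells. It had 383 and 442 under IAA and 472 and 473 once IAA was washed out (voom log2 change with IAA -0.25, adjusted p = 0.0693). BNIP3 and BNIP3L mark mitochondria for removal, P4HA2 is the second collagen hydroxylase subunit and ANGPTL4 an inhibitor of lipoprotein lipase. Voom called none of these 5 with IAA.

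For the 6 members with the largest changes that voom called with IAA, 3 up and 3 down, the 250 bases before the first transcription start that RefSeq lists are shown, so that the HIF core motif can be set beside the direction of change. All are from GRCh38.p14, 5′ to 3′ on the gene's strand, and capitals mark ACGTG or GCGTG on either strand (CACGT and CACGC on the reverse), where ACGTG reads on both strands within CACGTG. They lie at chr2:86441121-86441370 (plus strand, KDM3A), chr10:72273674-72273923 (plus, DDIT4), chr3:48556804-48557053 (minus, PFKFB4), chr2:74833877-74834126 (plus, HK2), chr11:10304823-10305072 (plus, ADM) and chr4:185396591-185396840 (plus, ANKRD37). KDM3A and HK2 each have 2 listed starts.
KDM3A: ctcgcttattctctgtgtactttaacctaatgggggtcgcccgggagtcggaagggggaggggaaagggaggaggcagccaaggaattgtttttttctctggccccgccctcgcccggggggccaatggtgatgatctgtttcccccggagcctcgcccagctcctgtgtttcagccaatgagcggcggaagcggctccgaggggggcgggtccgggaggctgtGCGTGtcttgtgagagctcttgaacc
DDIT4: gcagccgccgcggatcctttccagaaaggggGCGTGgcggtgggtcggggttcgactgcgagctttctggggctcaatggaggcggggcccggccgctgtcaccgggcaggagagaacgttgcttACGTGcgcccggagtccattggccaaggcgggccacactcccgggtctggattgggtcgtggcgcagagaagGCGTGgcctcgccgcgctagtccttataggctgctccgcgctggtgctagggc
PFKFB4: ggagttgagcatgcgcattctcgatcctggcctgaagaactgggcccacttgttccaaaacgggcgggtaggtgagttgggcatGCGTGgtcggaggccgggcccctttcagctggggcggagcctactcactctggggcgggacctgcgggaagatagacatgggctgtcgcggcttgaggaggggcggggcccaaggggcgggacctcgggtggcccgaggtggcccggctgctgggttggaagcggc
HK2: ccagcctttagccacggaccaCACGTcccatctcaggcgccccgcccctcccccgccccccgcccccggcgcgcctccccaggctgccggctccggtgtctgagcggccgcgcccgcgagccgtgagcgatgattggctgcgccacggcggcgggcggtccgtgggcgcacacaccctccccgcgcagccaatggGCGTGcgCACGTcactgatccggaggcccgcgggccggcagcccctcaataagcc
ADM: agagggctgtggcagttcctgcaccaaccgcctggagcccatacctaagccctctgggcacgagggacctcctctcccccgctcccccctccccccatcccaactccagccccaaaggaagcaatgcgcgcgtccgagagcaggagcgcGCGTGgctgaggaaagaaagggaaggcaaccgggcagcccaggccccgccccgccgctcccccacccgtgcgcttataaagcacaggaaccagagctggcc
ANKRD37: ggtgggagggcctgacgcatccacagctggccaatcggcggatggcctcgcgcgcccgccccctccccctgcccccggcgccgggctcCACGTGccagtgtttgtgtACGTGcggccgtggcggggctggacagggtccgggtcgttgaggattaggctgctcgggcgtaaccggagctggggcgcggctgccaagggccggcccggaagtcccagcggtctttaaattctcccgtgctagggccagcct

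All 6 windows hold at least 1 match, those that rose (KDM3A, DDIT4, PFKFB4) and those that fell (HK2, ADM, ANKRD37) alike. Over all members in the RefSeq table (33 of 37, with 55 starts, some of them overlapping), ACGTG stood in 41.8% of the windows and GCGTG in 38.2%, against 18.5% and 32.2% of 35116 starts of all genes. The members' windows had a median GC content of 68.4%, against 58.0% for all starts, and these motifs hold mostly G and C. A link between GC content and the motif shares was not tested. At least 1 of the motifs stood in 83.3% of the 12 windows of HIF targets and in 62.1% of the 29 windows of glycolytic enzymes, against 43.2% of all starts. Genes with several starts count several times in these shares, HK1 with 7 of the enzyme windows. By gene, 28 of the 33 members held a match at any of their starts. The difference between these roles was not tested. A match in such a short motif is a description of the letters and does not show binding.

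Among the transporters, SLC16A3 (ENSG00000141526.10), which exports lactate, had 12.8 and 13.7 FPKM in control cells, 11.95 and 11.52 under IAA and 13.3 and 13.6 once IAA was washed out. Both IAA libraries lay under the other 4. The log2 change was -0.16 (SE 0.0488, limma adjusted p = 0.0975), and voom called it down at -0.18 (adjusted p = 0.00101). SLC2A1, the glucose transporter of most cells, ranged from 2.69 to 2.88 FPKM over all libraries and was not called in any comparison. SLC2A3, the neuronal-type glucose transporter, had 43 and 42 reads in control cells, 28 and 17 under IAA and 32 and 49 once IAA was washed out (voom log2 change with IAA -0.94, 95% interval -1.69 to -0.19, adjusted p = 0.0619).

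Of the 15 glycolytic enzymes, 14 passed the filter and limma called 0 up and 1 down with IAA (7.14%, against 13.1% of all tested genes), with folds of mean FPKM from 0.654 to 1.08. HK2 (ENSG00000159399.5), which phosphorylates glucose in the first step, had 1.43 and 1.40 FPKM in control cells, 0.944 and 0.913 under IAA and 1.20 and 1.27 once IAA was washed out. The IAA libraries were the lowest and the washout libraries stood between IAA and control, with no overlap. The mean went from 1.42 ± 0.0206 to 0.929 ± 0.0223 FPKM (SD, n = 2), a log2 change of -0.33 (SE 0.0359, limma adjusted p = 0.0135) and of -0.61 on recovered reads (voom adjusted p = 9.06e-09). Without any 1 of the control or IAA libraries the limma adjusted p was 0.0763 to 0.0819, so this call too needs all 4.

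HK2 shares sequence with the processed copy HK2P1, whose row held 905 and 870 reads in control cells, 679 and 653 under IAA and 790 and 833 once IAA was washed out, 40.0% of the reads of both. The rows moved in the same direction: IAA over control was 0.651 for HK2, 0.750 for the copy and 0.690 for their sum. HK1, the housekeeping hexokinase, had 1878 to 2111 reads per library and was not called by voom.

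In the next steps GPI, which turns glucose 6-phosphate into fructose 6-phosphate, had 8.96 and 9.24 FPKM in control and 7.47 and 8.04 with IAA, without overlap (log2 change -0.21, limma adjusted p = 0.0606, voom adjusted p = 5.63e-05 for a fall). PFKP (ENSG00000067057.12), the platelet-type phosphofructokinase that catalyses the committed step, had 5.13 and 5.32 FPKM in control cells, 4.69 and 4.66 under IAA and 5.28 and 5.37 once IAA was washed out. The IAA pair was again the lowest (log2 change -0.13, SE 0.0348, limma adjusted p = 0.0737), and voom called it down at -0.16 (adjusted p = 0.00252). PFKL, the liver-type isoform of the same enzyme, had 6.03 and 5.98 FPKM in control and 6.32 and 6.22 with IAA, which lay above without a call (limma adjusted p = 0.484).

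In the lower pathway ENO1, the main enolase, had 50.8 and 53.6 FPKM in control and 48.2 and 49.0 with IAA (limma adjusted p = 0.261, voom log2 change -0.10, adjusted p = 0.023, called down). GAPDH, often used as a reference gene, had 141 and 145 FPKM in control cells, 136 and 150 under IAA and 148 and 151 once IAA was washed out. Control and IAA overlapped, with a log2 change of 0.00 (95% interval -0.15 to 0.14, limma adjusted p = 0.972). ALDOA, ALDOC, TPI1, PGK1, PGAM1, ENO2, PKM and LDHA had limma log2 changes with IAA from -0.09 (LDHA) to 0.10 (ALDOC) and were not called by either test.

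Fructose 2,6-bisphosphate activates phosphofructokinase, and PFKFB3 and PFKFB4 make it and break it down. PFKFB3 had 1.18 and 1.20 FPKM in control and 1.26 and 1.18 with IAA, which overlap (limma adjusted p = 0.748). PFKFB4 (ENSG00000114268.7) lay under the filter with 184 and 191 reads in control cells, 268 and 332 under IAA and 226 and 221 once IAA was washed out. Both IAA libraries were above the other 4, and voom called a log2 change of 0.68 (SE 0.14, adjusted p = 0.000368). Limma did not call it with all genes above 0 on log2(FPKM + 1) (adjusted p = 0.0853) or with a filter and pseudocount of 0.1 (adjusted p = 0.0554). UCN2 overlaps its exons on the same strand, so reads of either gene may be counted in it.

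**Figure D2:**
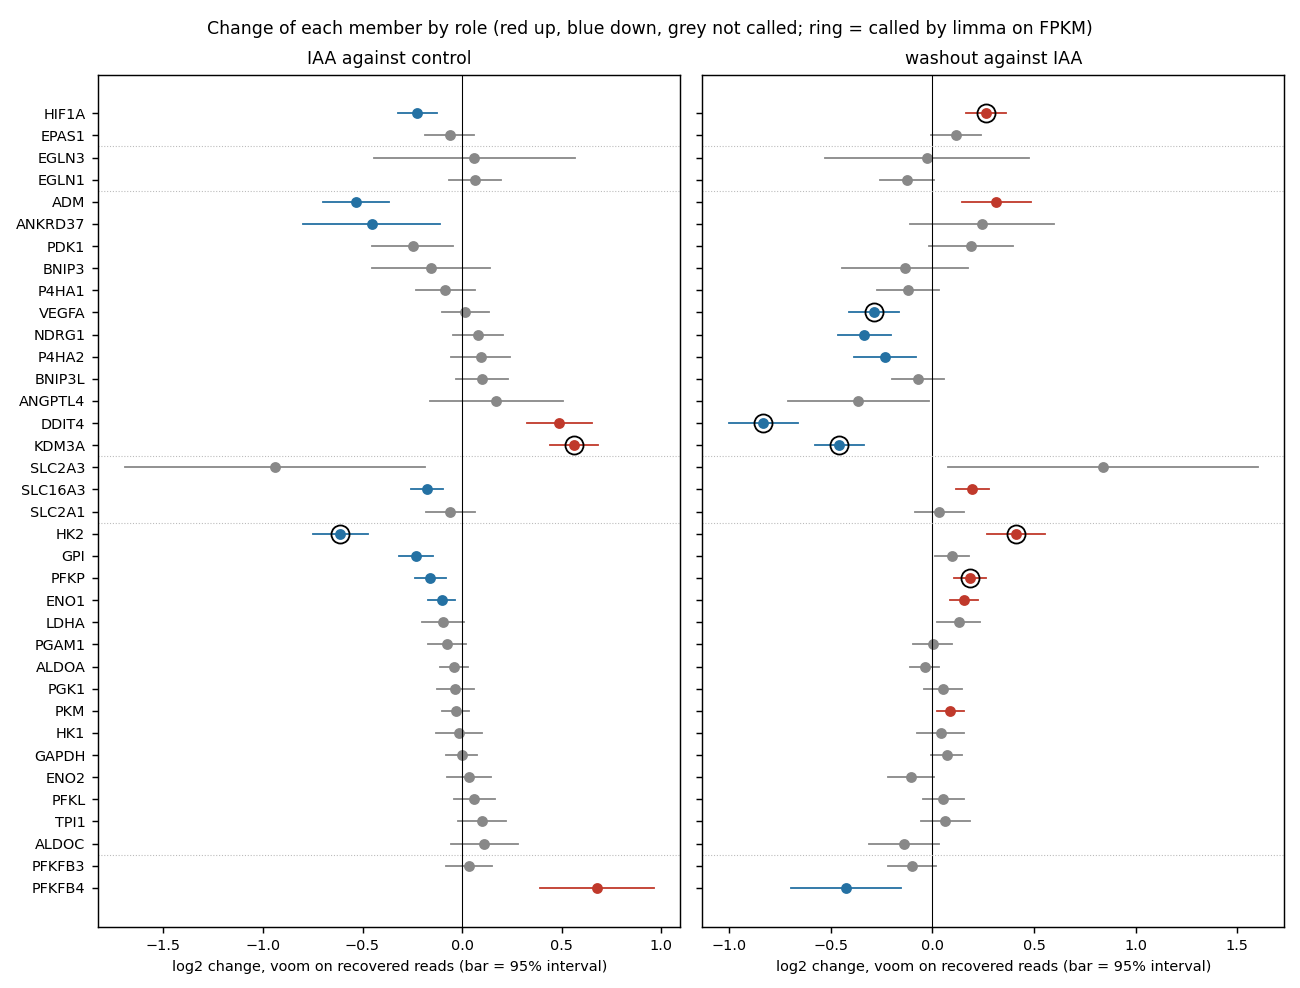
Log2 change (horizontal axes) of the 36 members tested by voom on recovered reads, IAA against control at the left and washout against IAA at the right, grouped by role with dotted lines between groups; points are estimates, bars are 95% intervals, red and blue are called up and down, and rings mark members that limma on FPKM called too. With IAA, 3 members are red and 8 blue, and after washout 7 are red and 6 blue.

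Between IAA and washout, several members changed toward their control level, and VEGFA and DDIT4 fell to values under both control libraries. Limma called 6 of 27 members (22.2%) in washout against IAA, 3 up and 3 down, against 14.4% of all tested genes (7.73% up and 6.65% down). The members' median log2 change was 0.05, beside 0.00 for all tested genes. HIF1A, HK2 and PFKP rose, and KDM3A, DDIT4 and VEGFA fell. Of the 10 tested genes of the oxygen-sensing system 1 rose and 3 fell, and of the 17 glycolysis and transport genes 2 rose and 0 fell. With TPM the genes called were 804 up and 400 down, where the unscaled values gave 643 and 553, and of the members SLC16A3 was called up and VEGFA was no longer called (adjusted p = 0.0502). Both comparisons use the same IAA libraries, so their values are not independent.

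The largest of these 6 changes was that of DDIT4, at 19.6 and 25.8 FPKM after washout against 41.1 and 38.8 with IAA (log2 change -0.80, SE 0.137, limma adjusted p = 0.0285). KDM3A fell to 0.730 of its IAA level (log2 change -0.31, SE 0.0445, limma adjusted p = 0.0215). VEGFA stood at 5.48 and 5.81 FPKM after washout, under both IAA libraries and both control libraries (log2 change against IAA -0.25, SE 0.0533, limma adjusted p = 0.0471).

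Of the members that rose, HK2 went up 1.33-fold (log2 change 0.21, SE 0.0359, limma adjusted p = 0.0279) and stayed under both control libraries. HIF1A went up 1.20-fold to values that overlap control (log2 change 0.21, SE 0.0425, limma adjusted p = 0.0418). PFKP went up 1.14-fold, also to values that overlap control (log2 change 0.16, SE 0.0348, limma adjusted p = 0.0499). Leaving out any 1 of the 6 libraries raised the limma adjusted p of all 6 members over 0.05 (up to 0.174 for PFKP), except DDIT4 without washout replicate 2, which kept 0.045.

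On recovered reads voom called 13 of 36 members in washout against IAA (36.1%, against 25.2% of all genes), 7 up and 6 down (11.3% and 13.9% of all genes). To the 6 named by limma it added ADM, ENO1, PKM and SLC16A3 among those that rose and NDRG1, P4HA2 and PFKFB4 among those that fell. NDRG1 had 3.06 and 3.77 FPKM after washout, under both IAA libraries (voom log2 change -0.33, adjusted p = 0.000121, limma adjusted p = 0.161). ADM rose by a log2 change of 0.32 (voom adjusted p = 0.00473, limma adjusted p = 0.144), with washout libraries at 20.6 and 26.2 FPKM, and the limma adjusted p was 0.0623 without washout replicate 1 and 0.214 without replicate 2. PFKFB4 fell by 0.43 on the log2 scale (voom adjusted p = 0.0166).

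The washout replicates stood apart in the HIF targets. Replicate 2 was higher than replicate 1 in 7 of the 7 tested HIF targets outside glycolysis, with a median gap of 0.24 on the log2(FPKM + 1) scale. In all tested genes replicate 2 was higher in 46.6%, with a median gap of -0.01. It was higher in 11 of the 14 tested glycolytic enzymes too, with a smaller median gap of 0.05. In control and IAA it was higher in 10 and 11 of these enzymes. The gap was 0.45 in ANKRD37, 0.38 in DDIT4, 0.33 in ADM and 0.24 in P4HA1, each above the 95th percentile of all tested genes (0.23), as was that of the aldolase ALDOC (0.34). In the control and IAA pairs replicate 2 was higher in 2 of these 7 targets each, and of all 27 members only TPI1, in control, lay outside the 5th to 95th percentile there. The cause of this gap was not tested.

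**Figure D3:**
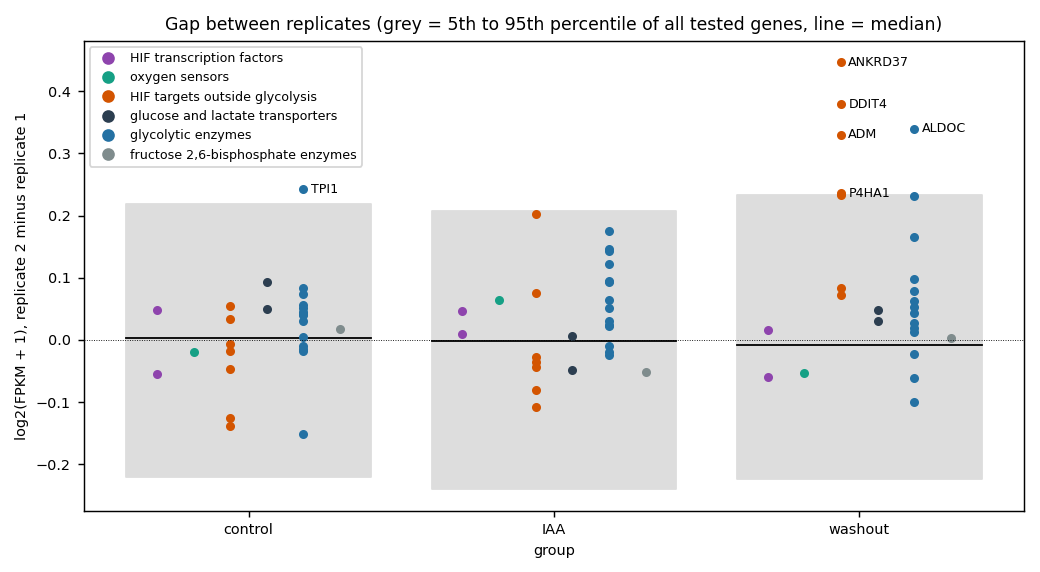
Gap between the replicates, log2(FPKM + 1) of replicate 2 minus replicate 1 (vertical axis), for the 27 tested members in each group, coloured by role; the grey band runs from the 5th to the 95th percentile of 8317 genes and the line is their median. In washout ANKRD37, DDIT4, ADM, ALDOC and P4HA1 lie above the band, and in IAA no member does.

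Washout against control showed 0 called members and 0 called genes of 8317 in limma (0.0%). At an unadjusted p under 0.05 limma had 750 genes (9.02%) and 2 of 27 members, HK2 and VEGFA. Voom had 1637 genes (11.1%) and 10 of 36 members at that level, ADM, ALDOA, DDIT4, GPI, HK2, NDRG1, P4HA1, PFKL, TPI1 and VEGFA. The members' median log2 change was -0.02, beside 0.01 for all tested genes. Of the 7 tested HIF targets 6 had a log2 change under 0, with a median of -0.20. Of the 14 glycolytic enzymes 6 did, with a median of 0.02, and of all 8317 tested genes 3690 did. Washout replicate 1 was the lower of its pair in all 7 HIF targets, with a median gap of 0.24, so their median change depends in part on that library. The difference between HIF targets and glycolytic enzymes was not tested.

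VEGFA had both washout libraries under both control libraries (log2 change -0.23, 95% interval -0.37 to -0.09, limma adjusted p = 0.507). Voom, which called 93 genes (0.628%, of which 0.304% up and 0.324% down), called VEGFA as its 1 member, at -0.27 (adjusted p = 0.0192). HK2 at 0.871 of control had a log2 change of -0.11 (95% interval -0.21 to -0.02, limma adjusted p = 0.524), and voom did not call it either (adjusted p = 0.165). DDIT4 at 0.796 of control had a log2 change of -0.33 (95% interval -0.68 to 0.03, limma adjusted p = 0.564) and its washout replicates differed by 0.38 on the same scale. At this number of libraries a member that was not called is not shown to be back at its control level.

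**Figure D4:**
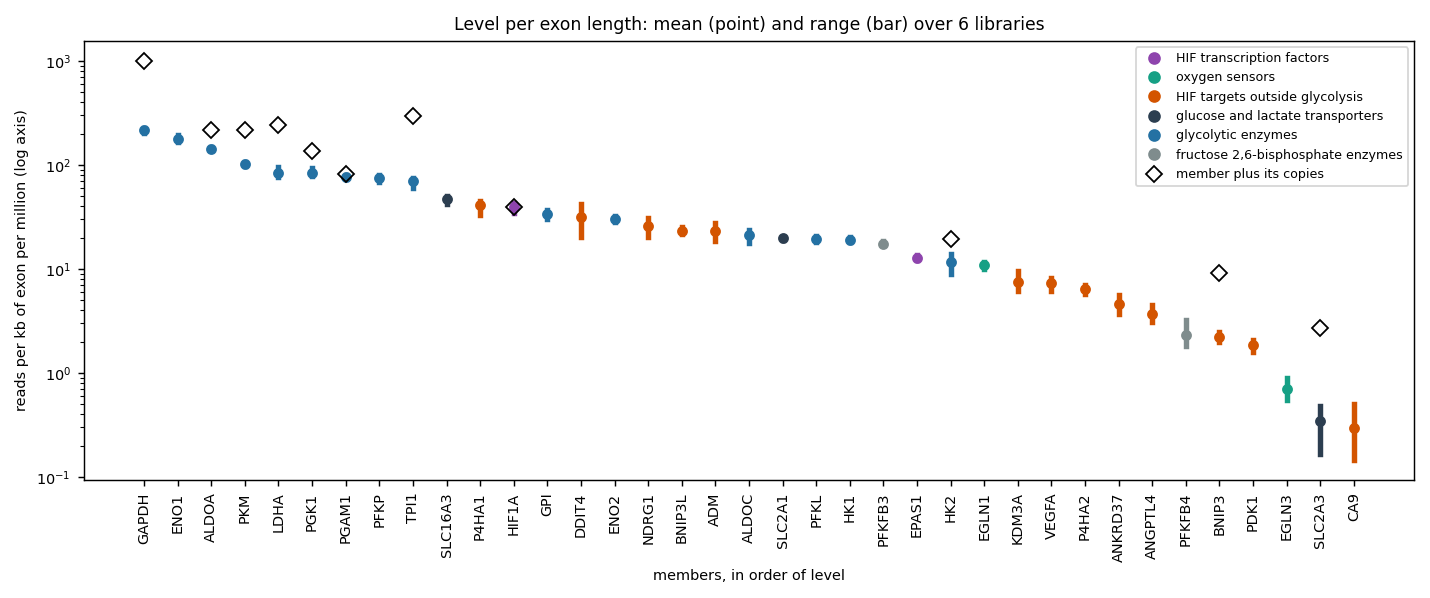
Level of each member in reads per kilobase of exon and 1000000 library reads (vertical log axis), as the mean (point) and range (bar) over 6 libraries, in order of level and coloured by role; open diamonds add the reads of near-identical copies. Glycolytic enzymes hold the top of the order, from GAPDH at 216, and SLC2A3 and CA9 the bottom, at 0.343 and 0.293.

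Levels per exon length (recovered reads per kilobase of merged exon, scaled to 1000000 library reads) put glycolytic enzymes at the top of the order. GAPDH stood at 216 ± 8.92 (SD over 6 libraries), ENO1 at 179 ± 10.2, ALDOA at 142 ± 4.06 and PKM at 101 ± 3.46, and these 4 were separate from each other in every library. The reads of 13 members, GAPDH, ENO1, PKM, PGK1, HIF1A and HK1 among them, were the nearest whole solution to the annotated span and those of ALDOA the smallest, so their levels also rest on that choice. LDHA (84.4), PGK1 (84.2), PGAM1 (75.8) and PFKP (74.9) followed and overlapped their neighbours. The hexokinases stood lower, HK1 at 18.9 and HK2 at 11.7, without overlap. With the reads of its copy added HK2 reached 19.5, and the order of the hexokinases then is not resolved.

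SLC16A3 (46.7) was the most abundant of the transporters, above SLC2A1 (19.6) and SLC2A3 (0.343). P4HA1 (41.4), DDIT4 (31.2), NDRG1 (25.9), BNIP3L (23.1) and ADM (23.0) led the HIF targets outside glycolysis, and DDIT4 had the widest range of these, from 20.2 to 42.3. This order also depends on the length used, that of all annotated exons merged, which can exceed the length of the RNA made. P4HA1 had 2133.7 reads on average over 3093 bases of merged exon, and VEGFA (level 7.27) had 1747.8 over 14431. HIF1A stood at 39.1 and EPAS1 at 12.8, and EGLN1 at 10.8 against 0.700 for EGLN3. CA9 ended the order at 0.293, from 0.146 to 0.500. Of the 36 neighbouring pairs 10 were separate in every library and 26 overlapped, so the order within most of its middle is not resolved.

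Several enzymes are counted beside processed pseudogenes of nearly the same sequence, and for these the level of the gene's own row is uncertain. The table has 106 rows of such copies for 13 members. In 6 members the copies held more reads than the gene itself: SLC2A3 (87.2% of the reads of both, mostly on SLC2A14, a duplicated gene), GAPDH (78.5%), TPI1 (76.7%), BNIP3 (76.0%), LDHA (64.9%) and PKM (53.4%). The row of GAPDHP1 alone held 32203.8 reads on average, against 10745.0 for GAPDH. With the copies added the level of GAPDH was 1005, of TPI1 297.8, of LDHA 240.6 and of PKM 216.8, so the order among the top enzymes depends on how these reads are assigned.

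**Figure D5:**
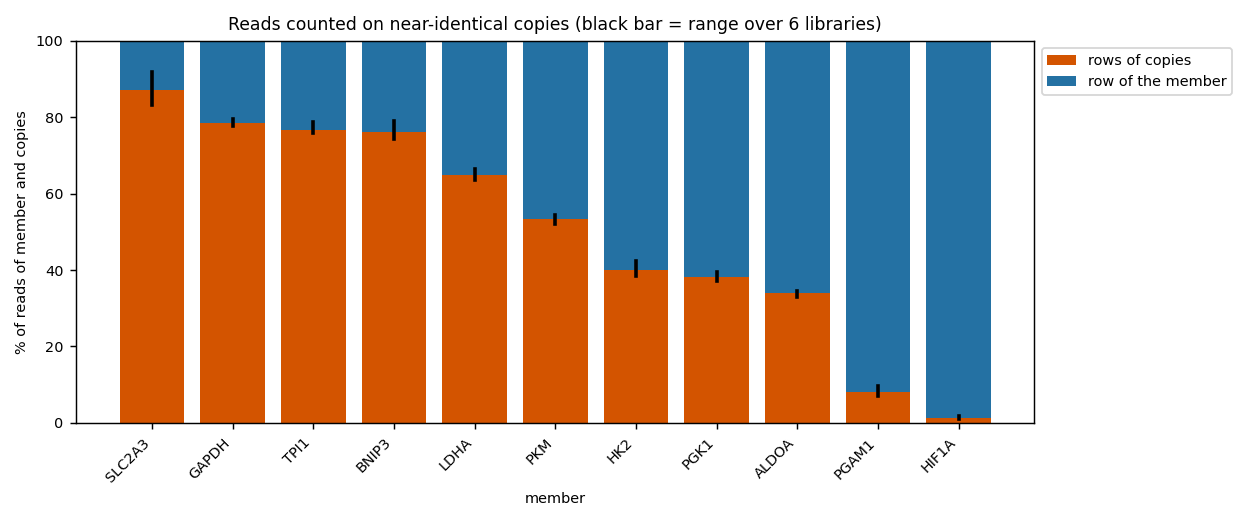
Share of reads (vertical axis, percent) counted on rows of near-identical copies (orange) and on the member's own row (blue) for the 11 members whose copies had at least 10 reads, with black bars for the range over 6 libraries. GAPDH, TPI1, BNIP3 and SLC2A3 have over 70% of their reads on copies, and HIF1A has 1.4%.

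Adding the copies changed the calls of 4 members. With their reads added to the gene, voom called SLC2A3 down with IAA (log2 change -0.60, adjusted p = 0.00146) and up after washout (0.60, adjusted p = 0.00155), and LDHA down with IAA (-0.10, adjusted p = 0.0469). PKM was then not called after washout, and NDRG1 was called down in washout against control (voom adjusted p = 0.0418) although it has no copies itself. SLC2A3 and SLC2A14 reads cannot be told apart here, since most lie on SLC2A14. This way of counting was chosen after seeing the data.

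Other genes of these pathways were counted from 4 lists, to be read against the 13.1% of all genes that limma called with IAA and the 14.4% in washout against IAA (24.1% and 25.2% by voom). Of 8 tested HIF pathway regulators limma called 1 up and 0 down with IAA, HIF1AN, the asparagine hydroxylase that blocks HIF coactivator binding (7.16 ± 0.0353 to 8.54 ± 0.349 FPKM, SD, n = 2, limma adjusted p = 0.0383). After washout it called 1 up and 0 down against IAA, CITED4, which competes with HIF1A for its coactivators (1.07 ± 0.249 to 2.16 ± 0.0389 FPKM, 2.02-fold, limma adjusted p = 0.0241). Voom called 2 up and 0 down of 15 with IAA, and 1 up and 3 down after washout against IAA. Of 17 tested HIF targets outside the 37 genes, 2 rose and 5 fell with IAA in limma, and voom called 4 up and 7 down of 32. Those that rose were WSB1, a ubiquitin ligase subunit (1.41-fold, limma adjusted p = 0.0122), and TGFA, a ligand of the EGF receptor (1.44-fold, limma adjusted p = 0.0139).

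BHLHE40, a transcriptional repressor of the circadian clock and hypoxia responses, went from 8.29 and 8.35 FPKM in control to 4.80 and 4.72 with IAA and to 7.08 and 8.73 after washout. The IAA libraries stood far under the others (0.572 of control, log2 change -0.70, limma adjusted p = 0.0177). AK4, a mitochondrial adenylate kinase, fell to 0.737 of control (limma adjusted p = 0.0417). After washout 5 of the 17 rose and 2 fell against IAA in limma (6 up and 4 down of 32 by voom), with BHLHE40 1.66-fold and PPP1R3B (a glycogen-targeting phosphatase subunit) 1.38-fold higher, and WSB1 and TGFA at 0.666 and 0.694 of IAA (limma adjusted p from 0.00924 to 0.027 for these 4).

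Of 22 other tested genes of glycolysis and pyruvate use, limma called 0 up and 3 down with IAA, whereas voom called 6 up and 4 down of 33. The 3 were the pyruvate dehydrogenase phosphatases PDP1 (0.834 of control, limma adjusted p = 0.0227) and PDP2 (0.733, limma adjusted p = 0.0436) and the lactate and pyruvate transporter SLC16A1 (0.847, limma adjusted p = 0.0355). PDP1 rose 1.15-fold after washout (limma adjusted p = 0.039), the 1 limma call of this list, where voom called 4 up and 4 down of 33. Limma called 0 of 9 pentose phosphate genes in any comparison, where voom called 2 of 10 down with IAA and 2 up after washout against IAA.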

How the data were processed

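The authors deposited FPKM for 31628 genes in 6 libraries. HISAT, Bowtie2, HTSeq and edgeR were used, with hg19, per the submitters' processing notes. The sources used here give no versions or roles of these tools, no annotation release and no strand. The deposited FPKM divide by the gene span: of 6800 low genes, 88.6% gave whole reads (tolerance 0.02 reads) with the span in GENCODE 29 and 38.2% with the exon length. Dividing each value by that of 1 read gave whole reads for all but 1 of 21707 genes above 0. The span set them for 16866, while for 4199 the nearest and for 641 the smallest whole solution was imposed. Recovered reads came to 102.41% to 102.56% of the library totals, for a reason the sources do not give.

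The main test took the 8317 genes whose mean FPKM was 1 or more. It was limma 3.58.1 (R 4.3.3) on log2(FPKM + 1), with 1 fit over the 6 libraries, a mean per group, a trend in the prior variance, 3 residual and 1.81 prior degrees of freedom, and two-sided p adjusted by Benjamini-Hochberg over all tested genes. The pseudocount of 1 shrinks the log2 changes of low genes. Folds are ratios of mean FPKM, ± is the SD over 2 libraries, and SE belongs to the log2 change. Voom (limma) was run on recovered reads of genes with a mean of at least 10 reads, scaled to the sum of recovered reads. Alternatives changed the pseudocount, filter, scaling, prior, replicate block and libraries used. Promoter windows are RefSeq's, GRCh38.p14.

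The 37 genes and the lists were chosen with earlier results of these data known. Named library by library are members called by limma, or by voom with a log2 change of at least 0.32 in size, in any comparison, and the member with the highest mean FPKM in each role. Of the lists, up to 5 called genes with the smallest adjusted p are named, and 1 of these is not reported here. A few other members are given to account for every gene. The main fit did not pair the samples by replicate number. Deviations of same-numbered libraries correlated at 0.04, -0.03 and 0.01 over genes between pairs of groups. These values show no large shared shift over all genes, but they cannot exclude that the samples are paired.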

Additional observations from a re-analysis of the deposited data

How the results depend on the processing

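For the 14 members given library by library, no called change reversed direction under the alternatives run (3 for PFKFB4, 16 or 17 for the others, copies added included). With IAA, members changed numbered 2 in the reported fit, 4 with TPM, 11 by voom and 13 with copies added. With a mean FPKM of at least 5 the number was 1 (ADM), and KDM3A (mean FPKM 1.93) and HK2 (1.19) were then not tested. Genes changed numbered 501, 3570 and 3584 with that filter, by voom and with copies, against 1092. Leaving out 1 library gave 0 to 4 members and 50 to 534 genes, where the lone library of a group is assumed to vary like the others. After washout against IAA, members changed numbered 6 in the reported fit, 2 with all genes above 0, 2 with a mean FPKM of at least 5, 3 with filter and pseudocount 0.1, 13 by voom and 13 with copies. The filter of 5 left HIF1A (mean FPKM 3.82), HK2 and KDM3A untested. Genes changed were 548 with a mean FPKM of at least 5, 3738 by voom and 3756 with copies, against 1196. Leaving out 1 library gave 0 to 1 members and 46 to 421 genes. The PFKP call (adjusted p = 0.0499) was lost under 7 settings that left out no library, a larger pseudocount among them. Washout against control had 0 genes in the reported fit, 48 with all genes above 0, 27 with filter and pseudocount 0.1, 93 by voom and 101 with copies, and members changed were 1 by voom (VEGFA) and 2 with copies (NDRG1 and VEGFA). With the replicate block, genes changed were 486 with IAA and 532 after washout against IAA, and members changed were 2 and 0. The causes of these shifts were not tested, apart from fewer libraries or genes.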
